A study of Mus musculus with 4 samples.

Results

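The comparison described here sets the array of metastases from mice whose primary tumour had received 10 Gy of radiation against the array of the irradiated primary tumour itself. These are 2 of the 4 arrays of the series, and each side is 1 array with no replicate, so no difference below carries a test. The mice were female and of a strain the labels spell Balb/s. They carried orthotopic tumours (placed in the organ of origin) grown from 50000 cells of 4T1, a mouse mammary carcinoma line that spreads to distant organs in immune-competent hosts. Of 20 mice, 10 received 10 Gy to the primary tumour once it measured 1 cm3, and the others a sham treatment. The primary tumour was then removed by mastectomy and metastases were left to grow to the end point. The beam was aimed at the primary tumour, so the array labelled mets/10Gy holds metastases from treated animals, and the 2 samples differ in site, in exposure to the beam and in the time at which they were taken. The labels do not give the organ of the metastases, the age of the mice or whether RNA of several mice was pooled. The other 2 arrays hold metastases and primary tumour of sham-treated mice and are used at the end as a second comparison of the 2 sites.

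MicroRNAs are short RNAs that pair with messenger RNAs, mainly through the seed at bases 2 to 8, and lower the output of the genes they match. MicroRNAs that share a seed are grouped into families, since they can pair with many of the same targets. Many are made chiefly by a single kind of cell, such as red blood cells, endothelium, smooth muscle or epithelium, so a bulk tissue sample reflects its mixture of cells as well as the levels inside them. In these data, fewer cells of a type and less RNA per cell cannot be told apart.

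The sequences below belong to the microRNAs that stood furthest apart between the 2 samples or that form families within them, with the seed in capitals. They are RefSeq mature sequences on mouse assembly GRCm38.p6, written 5′ to 3′, and equal the target that the array names for the probe.

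Higher in metastases, and sharing the seed of the miR-30 family, were
miR-30a: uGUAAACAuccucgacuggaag
miR-30c: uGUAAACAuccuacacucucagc

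Also higher, and sharing the seed of the main branch of the miR-200 family, were
miR-200b: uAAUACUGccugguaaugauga
miR-200c: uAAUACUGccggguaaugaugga
miR-429: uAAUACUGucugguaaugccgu

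The miR-15 and miR-16 family shares a seed too, and its members differed in how far they stood apart.
miR-15a: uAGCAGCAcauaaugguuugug
miR-195: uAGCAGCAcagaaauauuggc
miR-16: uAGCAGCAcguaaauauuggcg

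In 2 further pairs that share a seed, the c and b members were higher in metastases and the a members lay under 2-fold.
miR-29c: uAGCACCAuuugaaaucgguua
miR-29a: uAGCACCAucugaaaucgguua
miR-26b: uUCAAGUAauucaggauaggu
miR-26a: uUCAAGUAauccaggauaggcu

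Blood, vessel, immune and epithelial microRNAs that were higher in metastases were
miR-451: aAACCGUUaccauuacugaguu
miR-126-3p: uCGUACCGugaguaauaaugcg
miR-223: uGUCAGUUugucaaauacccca
miR-146a: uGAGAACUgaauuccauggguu
miR-203: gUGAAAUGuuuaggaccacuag

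Lower in metastases were
miR-212: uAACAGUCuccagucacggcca
miR-1898: aGGUCAAGguucacaggggauc
miR-698: cAUUCUCGuuuccuucccu
miR-346: uGUCUGCCcgagugccugccucu
miR-31: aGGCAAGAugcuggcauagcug

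In that assembly miR-30a lies at chr1:23272274-23272295 on the plus strand, and miR-30c is encoded at chr1:23291714-23291736 and again at chr4:120769584-120769606, inside Nfyc and beside Mir30e. The miR-200 family has a locus at chr6:124718324-124718346, miR-200c beside Mir141, and another on the minus strand of chromosome 4, where miR-200b (chr4:156055685-156055706) and miR-429 (chr4:156053916-156053937) neighbour Mir200a. The locus of miR-15a, chr14:61632075-61632096, lies within Dleu2 beside Mir16-1, while miR-195 lies at chr11:70235062-70235082 beside Mir497. Within protein-coding host genes stand miR-126-3p (chr2:26591402-26591423, Egfl7), miR-1898 (chr15:12171502-12171523, Zfr), miR-698 (chr4:124743852-124743870, Inpp5b) and miR-346 (chr14:34894624-34894646, Grid1). The locus of miR-212, chr11:75173443-75173464, has Mir132 within 10 kb, and that of miR-451, chr11:78073186-78073207, has Mir144. The locus of miR-223 is chrX:96242884-96242905, that of miR-203 chr12:112130927-112130948 and that of miR-31 chr4:88910614-88910635.

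Each microRNA was read by 5 spots on a chip with 700 microRNA probes. Levels below are linear scanner intensities minus the median of the 180 empty spots of the same array, averaged over those spots, and the value after ± is the SD over the 5 spots, which covers variation within a chip only. The empty spots had a median of 252 units in metastases and 417 units in the primary tumour, the highest background of the 4 arrays. A probe counted as detected when at least 3 of its 5 spots lay above the 95th percentile of the empty spots, a limit of 24.1 units above empty in metastases and 57.7 units in the primary tumour. By that rule 339 probes (48.4%) were detected in metastases and 186 probes (26.6%) in the primary tumour, of which 158 were detected in metastases alone and 5 in the primary tumour alone. Differences are log2 of metastases over primary tumour, less the median of that ratio over the probes detected in both, which was 0.32. The 5 probes for 5S ribosomal RNA, set beside it as a check, had unscaled ratios from -0.62 to 1.33 with a median of 0.28. Where a probe was detected in only 1 sample, the difference is a bound against the detection level of the other array, given as at least so many fold.

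Of the 344 probes detected in either sample, 56 stood 2-fold or more above the primary tumour in metastases (16.3%) and 35 stood 2-fold or more below it (10.2%). Among probes measured in both, the counts were 37 above (20.4%) and 30 below (16.6%). With no replicate these are sizes and not calls of a test. The balance of the directions depended on the scaling. Higher probes made up 61.5% of those past 2-fold under median scaling, 77.8% with no scaling, 31.6% when each array was set to its 75th percentile, 46.8% after cyclic loess and 47.9% after normexp and quantile normalisation. Under all 6 scalings, which add quantile normalisation to these, 27 probes stayed above 2-fold (7.85% of those detected) and 17 below it (4.94%), and microRNAs among these are named as holding under each scaling.

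**Figure D1:**
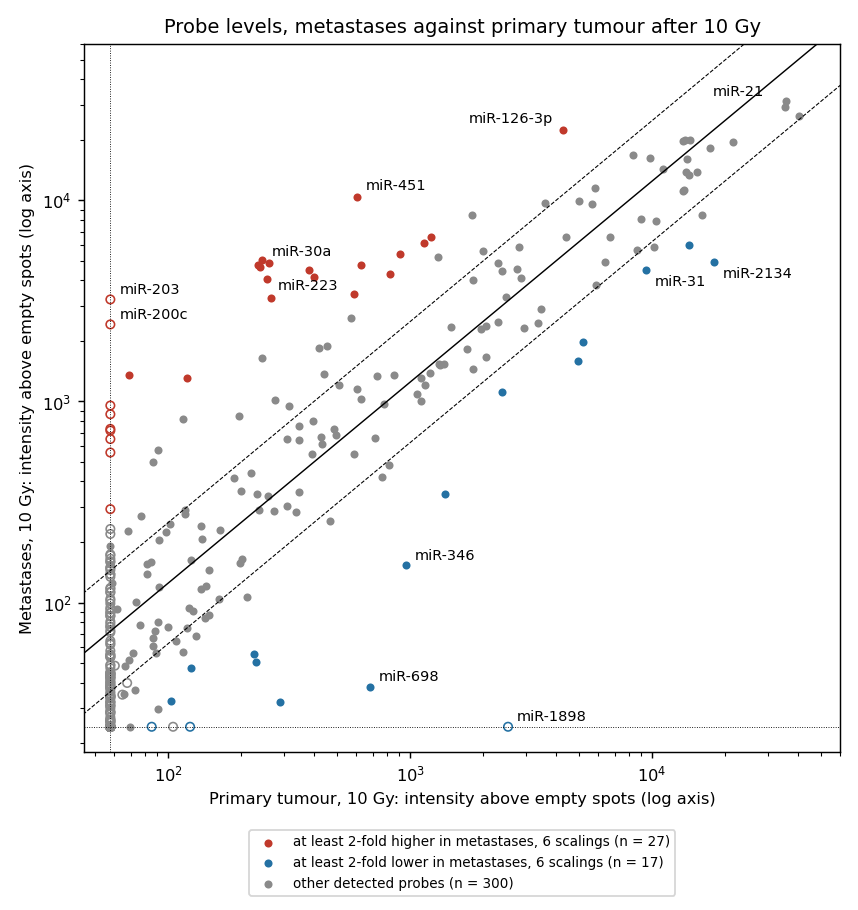
Intensity above the empty spots in metastases (vertical) against the primary tumour (horizontal) after 10 Gy, both on log axes, for the 344 probes detected in either sample. Open circles are probes detected in 1 sample, drawn at the detection limit (dotted lines) of the other where they fell below it. The solid line is the median ratio and the dashed lines are 2-fold to either side. miR-203 and miR-200c stand at the left edge and miR-1898 at the bottom.

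The miR-30 family, which is abundant in differentiated epithelium and heart, was higher in metastases throughout. All 5 of its probes passed 2-fold upward, against 16.3% of all detected probes, and all 5 did so under each of the 6 scalings. miR-30a read 4672 ± 607 units in metastases and 241 ± 56.7 units in the primary tumour, a difference of 3.96 ± 0.24 (log2, SD over 5 pairs of spots), or 15.6-fold. miR-30b, miR-30c and miR-30d read 6559.7, 6109.9 and 4299 units in metastases, against 1223, 1145 and 826 units in the primary tumour, differences of 2.11, 2.10 and 2.06. miR-30e had 650.2 ± 119 units in metastases and was not detected in the primary tumour, which puts it at least 9.04-fold higher. In none of the 5 did the spots of the 2 arrays overlap. That was common to nearly all such probes, 36 of the 37 measured in both and at least 2-fold higher. The targets of miR-30a and miR-30d differ at 1 of 22 bases, as do those of miR-30a and miR-30e, and how far each probe also bound its neighbour's RNA was not tested.

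Of the microRNAs of smooth muscle and fibroblasts, 3 of 6 were 2-fold or more higher in metastases, against 16.3% of all detected probes. miR-143 and miR-145, which are made from a shared transcript and keep smooth muscle differentiated, read 4507 ± 461 and 4141 ± 436 units in metastases, against 383 ± 74.8 and 402 ± 77.9 units in the primary tumour. Their differences were 3.24 ± 0.30 and 3.05 ± 0.20, at least 2-fold under each scaling. miR-199a-3p, of mesenchymal cells, was 3.51-fold higher in metastases. miR-214, transcribed together with miR-199a-2, did not follow, with 1442 ± 278 units in metastases and 1810.4 ± 336.9 units in the primary tumour and overlapping spots. The bounds of miR-199a-5p and a miR-199b strand, both detected in metastases alone, were 0.08 and 0. The median was 2.43 over the 4 members measured in both and 0.95 with the bounds, against 0 over all probes by construction of the scaling.

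The microRNA of endothelium, miR-126-3p, read 22386 ± 2131 units in metastases, against 4273 ± 527 units in the primary tumour, a difference of 2.07 ± 0.19. Its partner strand miR-126-5p was detected on neither array. Both detected red-cell microRNAs were higher in metastases. miR-451, which is processed without Dicer and accumulates in maturing red cells, read 10341 ± 858 units in metastases and 601 ± 60.2 units in the primary tumour, 13.8-fold. miR-486 was 5.38-fold higher, but its difference spanned 0.19 to 2.74 over the scalings. miR-144, encoded beside miR-451, was detected on neither array.

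Of the myeloid microRNAs, miR-223, a regulator of granulocyte maturation, read 4050.1 ± 492 units in metastases and 256 ± 109.8 units in the primary tumour. Its difference of 3.67 ± 0.45, or 12.7-fold, held past 2-fold under all scalings. The other myeloid probes lay near the detection limits. miR-142-5p read 48.6 units in metastases and 6.0 units in the primary tumour, and miR-142-3p was detected in neither. Among lymphocyte microRNAs miR-150, of mature B and T cells, had 864 ± 117 units in metastases and was not detected in the primary tumour, at least 12.0-fold higher. miR-181a was 3.33-fold higher, while miR-181b and miR-155 differed by 0.26 and 0.76, both with overlapping spots. miR-146a and miR-146b, induced by NF-kB as a brake on inflammatory signalling, were 8.74-fold and 4.67-fold higher in metastases. They stayed past 2-fold under each scaling, at log2 differences of 1.09 and 1.22 at the lowest. The other members of the 4 listed as induced by NF-kB lay under 2-fold, miR-155 at 0.76 and miR-21 at -0.60. How much of the difference between the samples these cell types account for was not tested.

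Epithelial microRNAs gave the 2 largest bounds among those higher in metastases. miR-203, a microRNA of stratified epithelium that restrains stem-cell growth, read 3216 ± 531 units in metastases and 9.1 ± 23.4 units in the primary tumour, at least 44.7-fold higher. miR-200c and miR-200b, which hold epithelial identity by repressing Zeb1 and Zeb2, had 2417 ± 200.3 and 955 ± 105.7 units in metastases, against 5.2 and -15.3 units (below the empty spots) in the primary tumour, at least 33.6-fold and 13.3-fold higher. These 3 bounds were past 2-fold under every scaling. Of the 5 miR-200 family probes, 3 were at least 2-fold higher in metastases, against 16.3% of all detected probes, and 2 of these held under each scaling. The third, miR-429, differed by 1.11 ± 0.65 with overlapping spots and stood at 0.42 at the lowest scaling. The other two were near the limit, with miR-200a at 104 units and miR-141 at 27.9 units in metastases and neither detected in the primary tumour. The summed level of the family was 3659 units in metastases and 40.4 units in the primary tumour, so on the primary array the family as a whole read no higher than the 57.7 units that mark detection for a probe. 4T1 is an epithelial tumour line, and of this family only miR-429 was detected on the primary array, at 51.9 ± 32.3 units.

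Other epithelial microRNAs went both ways. miR-31 was lower in metastases, with 4497 ± 529 units there and 9443 ± 322.6 units in the primary tumour, a difference of -1.39 ± 0.14 that stayed past 2-fold under each scaling. miR-182 and miR-183, which are co-transcribed, differed by -0.25 and -0.44 with overlapping spots. miR-205 had 174 ± 42.8 units in metastases alone, at least 2.41-fold higher under median scaling, and its log2 bound ran from 0.58 to 2.99 over the scalings.

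For the organ that held the metastases, marker probes gave little in the 10 Gy pair. The lung list, with microRNAs of ciliated and alveolar cells, had 4 of 6 members detected, all in metastases alone and all between 25.9 and 61.8 units. In the sham pair all 6 were detected and 4 were at least 2-fold higher in metastases, against 20.3% of all detected probes there. Those 4 were bounds, at 2.78 for miR-218, 2.20 for miR-34b-3p, 1.27 for miR-375 and 1.02 for miR-34c. miR-122, the dominant microRNA of hepatocytes, read 717 ± 123 units in metastases and 7.0 ± 27.1 units in the primary tumour, at least 9.96-fold higher. In the sham pair miR-122 had 53.8 units in metastases and 7.0 units in the primary tumour. It was the 1 member past 2-fold after 10 Gy among the 3 detected of the hepatocyte and gut list. Over all probes detected in the 10 Gy pair the share that much higher was 16.3%. miR-192 and miR-194 were detected in metastases alone, with bounds of 0.72 and 0, and miR-215 was detected in neither.

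Of 7 skeletal and heart muscle microRNAs, 4 were detected in both samples, while miR-208a, miR-208b and miR-499, which lie within myosin heavy chain genes, were detected in neither. miR-1, of cardiac and skeletal muscle, read 8469 ± 1167 units in metastases and 1794 ± 485.4 units in the primary tumour, a difference of 1.92 ± 0.22. The muscle microRNAs miR-133b and miR-133a differed by 1.27 and 0.93, and miR-206, of skeletal muscle, by 0.36 with overlapping spots. None of these 4 stayed past 2-fold under all scalings, and miR-133a and miR-206 changed sign among them. The summed level of the muscle list was 12986 units in metastases and 4099 units in the primary tumour.

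Within the miR-15 and miR-16 family the members separated. Of the 6 detected, 3 were at least 2-fold higher in metastases, against 16.3% of all detected probes. These were miR-15a, miR-195 and miR-322, each under every scaling. miR-322 and miR-497 were detected in metastases alone, with bounds of 2.02 and 0.70. miR-15a, whose transcript is lost in some leukaemias in people, had 1350.3 ± 309 units in metastases and 68.8 ± 36.7 units in the primary tumour, a difference of 3.98 ± 0.08. The primary level lay near the 57.7-unit limit at which spots were floored, so that SD is understated, and the difference was 2.03 at the lowest scaling. miR-195, of another chromosome, had 3276 ± 533 units in metastases and 265 ± 57.6 units in the primary tumour, a difference of 3.31 ± 0.22. miR-16, encoded at 2 loci, beside miR-15a and beside miR-15b, differed by 0.67 and miR-15b by 0.40, and both changed sign among the scalings. The partner strand miR-15a* ran the other way, with 50.5 ± 33.9 units in metastases and 230.3 ± 90.4 units in the primary tumour, a difference of -2.51 ± 0.40. Both strands come from the same hairpin, and both passed 2-fold under each scaling in opposite directions.

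Members of the miR-29 and miR-26 families also lay apart in the 10 Gy pair. miR-29c, a repressor of collagen genes, had 731 ± 141.5 units in metastases and was not detected in the primary tumour, at least 10.2-fold higher, whereas miR-29a differed by 0.44. Their targets differ at 1 of 22 bases. The remaining member, miR-29b, had 148.4 units in metastases alone and a bound of 1.05, which was 0.36 at the lowest scaling. miR-26b read 5386 ± 660.0 units in metastases and 910 ± 269 units in the primary tumour, 4.75-fold higher, and miR-26a differed by 0.23. In the sham pair miR-29c and miR-29a differed by 4.29 and 0.72, and miR-26b and miR-26a by 0.72 and 0.77. miR-10a, of the Hoxb locus, had 557 ± 140.3 units in metastases alone, at least 7.75-fold higher, and miR-10b differed by 0.16.

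Growth-linked families showed smaller differences. The let-7 family, which represses Ras and Myc, had a median of 0.22 over the 8 members measured in both, with let-7g at 1.12 and let-7c at -0.24. The miR-17-92 cluster and its paralogs, driven by Myc, had a median of 0.55 over 10 members, with miR-20b at 1.80 and miR-17 at -0.22, and both changed sign over the scalings. miR-221 and miR-222, repressors of a cell-cycle inhibitor, differed by -0.24 and -0.67. The hypoxia microRNA miR-210 read 289 ± 55.0 units in metastases and 236 ± 46.0 units in the primary tumour and differed by -0.03. Of the 8 detected p53 targets 3 were at least 2-fold higher in metastases, against 16.3% of all detected probes. Outside the miR-143 and miR-145 pair this was miR-34a alone, 2.79-fold higher, which kept its direction over the scalings at 0.73 to 1.80. miR-107 differed by 0.33. The bound of miR-192 was 0.72, those of miR-194, miR-34b-3p and miR-34c were 0, and miR-215 was detected in neither.

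**Figure D2:**
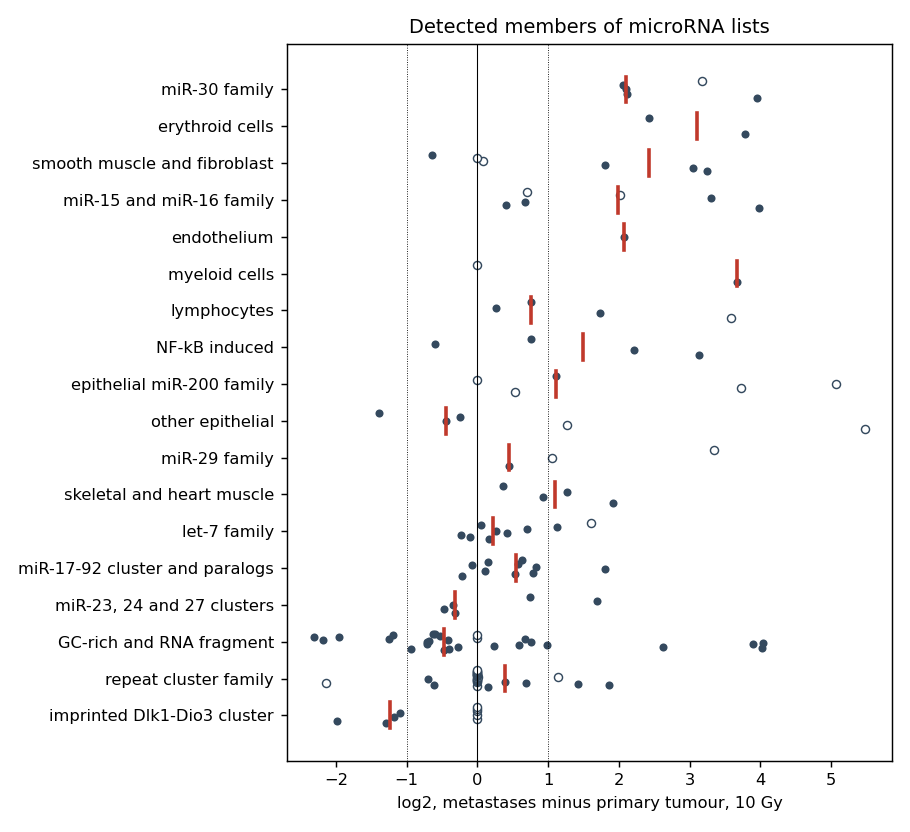
Log2 difference, metastases minus primary tumour after 10 Gy, for the detected members of 18 microRNA lists. Filled points were detected in both samples and open points in 1, where the value is a bound and stands at 0 if no difference is implied. Red bars are medians of the filled points, and dotted lines mark 2-fold. The miR-30 family lies wholly to the right of the 2-fold line and the measured imprinted members wholly to the left.

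Among microRNAs lower in metastases, miR-1898 had the largest bound. It read 17.7 ± 22.8 units in metastases and 2538 ± 230 units in the primary tumour, at least 131-fold lower under median scaling. The log2 bound of -7.03 ran from -9.12 to -5.53 over the scalings. miR-698 read 38.2 ± 17.8 units in metastases and 682 ± 93.7 units in the primary tumour, a difference of -4.48 ± 0.43. miR-764-5p and miR-346 differed by -3.50 ± 0.70 and -2.96 ± 0.36, with 32.1 and 153 units in metastases, against 291 and 960.2 units in the primary tumour. For miR-698 and miR-764-5p the metastasis array lay near its 24.1-unit limit, so the size rests on few units. miR-1191 had 9.5 units in metastases and 123 ± 30.4 units in the primary tumour, at least 6.36-fold lower. These 5 stayed at least 2-fold lower under each scaling.

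miR-132 and miR-212, neighbours that share the seed aacaguc and are induced by CREB in neurons, were both lower in metastases. miR-132 read 1968 ± 160 units in metastases and 5188 ± 283 units in the primary tumour, a difference of -1.72 ± 0.07. miR-212 had 55.6 ± 30.7 units in metastases and 226 ± 29.7 units in the primary tumour and differed by -2.34 ± 0.66. Their targets differ at 5 of 22 bases, and both stayed past 2-fold under each scaling.

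The imprinted Dlk1-Dio3 cluster, a large group of microRNAs expressed from the maternal chromosome, was largely below detection. Of the 41 names listed 32 had a probe under that name, and of these 23 were detected in neither sample and 5 in metastases alone. Probes named with a strand label were not counted, among them miR-409-3p at -1.94 and miR-485* at -1.05. Another listed name, miR-342, lies outside the cluster, and its probe miR-342-3p, at 1.41, was not counted either. The 4 counted members measured in both, miR-127, miR-134, miR-329 and miR-379, had differences from -1.99 to -1.09. All 4 were at least 2-fold lower in metastases, against 16.6% of all probes measured in both. With the bounds, the median over the detected members was 0. The spots of miR-379 overlapped, at -1.09 ± 0.91. miR-329 read 421 units in metastases and 766 units in the primary tumour. Across the scalings only miR-134 stayed past 2-fold.

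Probes for GC-rich sequences and fragments of other RNAs went both ways. miR-1937a and miR-1937b, which match tRNA sequence and are no longer held to be microRNAs, read 4860.0 and 5034 units in metastases, against 261 and 245 units in the primary tumour, differences of 3.90 and 4.04. Their targets are alike over all 18 bases compared, so they are not independent observations. The target of miR-1937c differs from that of miR-1937b at 1 of 18 bases. miR-1937c went the other way, at -0.71, with a range of -1.40 to -0.40 over the scalings. miR-720, also of tRNA origin, was 6.14-fold higher and miR-711, inside Col7a1, 16.2-fold higher. On the other side miR-2140, miR-2134 and miR-2141 differed by -2.31, -2.19 and -1.96. miR-2134 was bright on both arrays, at 4939 ± 825 units in metastases and 18047 ± 1690.1 units in the primary tumour. The 27 detected probes of this list had a median of -0.47 over the 25 measured in both, with 4 past 2-fold upward and 5 downward. Those counts lie near the shares over all probes measured in both, 20.4% upward and 16.6% downward. Under every scaling 4 higher and 3 lower of the 27 stayed past 2-fold, against 7.85% and 4.94% of all detected probes.

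The 3 probes of highest intensity on each array, which were the same probes, lay under 2-fold. miR-21, an abundant tumour microRNA, read 29205 ± 3258 units in metastases and 35443 ± 1991 units in the primary tumour. Its difference of -0.60 ± 0.10 changed sign among the scalings, with a range of -1.29 to 0.07. miR-709 had 26376 units in metastases and 40567 units in the primary tumour, and miR-2142 had 31058 units in metastases and 35884 units in the primary tumour.

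**Figure D3:**
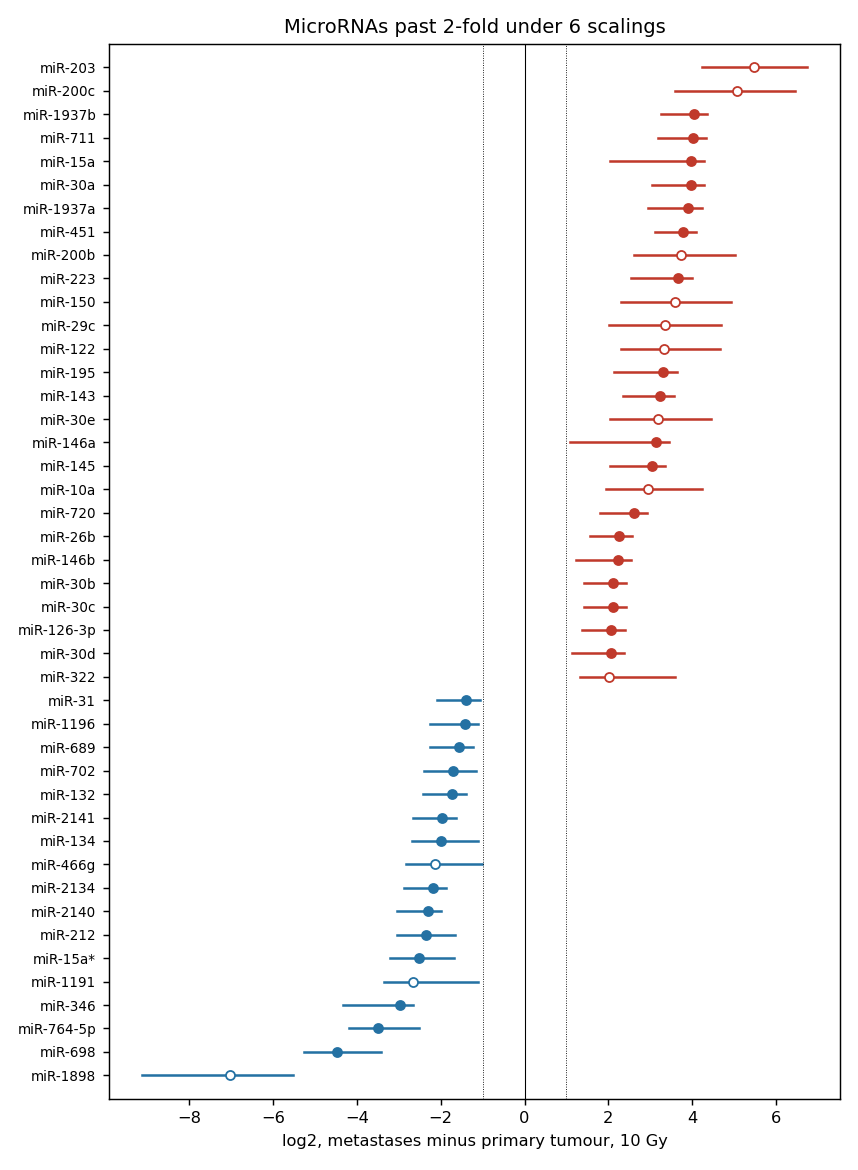
Log2 difference, metastases minus primary tumour after 10 Gy, for the 27 microRNAs above 2-fold and the 17 below it under all 6 scalings. Points are the median scaling (open where the value is a bound), lines run from the lowest to the highest scaling, and dotted lines mark 2-fold. Bounds such as miR-203 and miR-1898 have the widest lines.

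The probes that differed also differed in base composition. The median GC content of the targets was 47.8% for the 37 measured probes higher in metastases, 57.5% for the 30 lower and 50% for the 114 under 2-fold. Level differed as well. The higher probes had a median of 3423 units in metastases and 316 units in the primary tumour, and the lower probes a median of 85.5 units in metastases and 261 units in the primary tumour. Background, detection limit and level moved together with the comparison, and their part in the result was not tested.

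The 2 sham arrays gave the same comparison of sites without radiation and share no array with the 10 Gy pair. Of their 473 detected probes 20.3% were 2-fold or more higher in metastases and 19.2% lower by that much. Over the 180 probes measured in all 4 samples, the difference between metastases and primary tumour correlated between the 2 pairs at Pearson 0.53 and Spearman 0.63, across probes, which are not independent. At least 2-fold higher in both pairs were 26 probes, 72.2% of the 36 higher after 10 Gy and 66.7% of the 39 higher after sham. At least 2-fold lower in both were 16 probes, 53.3% of the 30 lower after 10 Gy and 35.6% of the 45 lower after sham. The difference between the pairs was not tested, and the values are given side by side.

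For some microRNAs the site differences of the 2 pairs lay close. miR-30a differed by 3.96 after 10 Gy and by 3.48 after sham, miR-195 by 3.31 and 3.25, miR-126-3p by 2.07 and 1.99, and miR-346 by -2.96 and -3.16. miR-200c was higher in metastases in both.

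For other microRNAs the values of the 2 pairs lay further apart. miR-143 differed by 3.24 after 10 Gy and by 4.75 after sham. miR-223 differed by 3.67 after 10 Gy, with 4050.1 units in metastases and 256 units in the primary tumour, and by -0.30 after sham, with 7354 units in metastases and 6792 units in the primary tumour. The low reading was that of the irradiated primary tumour. miR-711 followed the same pattern, at 4.02 after 10 Gy and 0.23 after sham. miR-1 differed by 1.92 after 10 Gy, with 8469 units in metastases and 1794 units in the primary tumour, and by 0.12 after sham, with 65.4 units in metastases and 45.1 units in the primary tumour, so both 10 Gy samples read above both sham samples. miR-206 differed by 0.36 after 10 Gy and by -6.44 after sham, where it had 144.8 units in metastases and 9444 units in the primary tumour. miR-31 differed by -1.39 after 10 Gy and by -0.10 after sham. miR-764-5p differed by -3.50 after 10 Gy and by 0.08 after sham. With 1 array per group, an effect of radiation on these site differences cannot be told apart from differences between single samples.

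**Figure D4:**
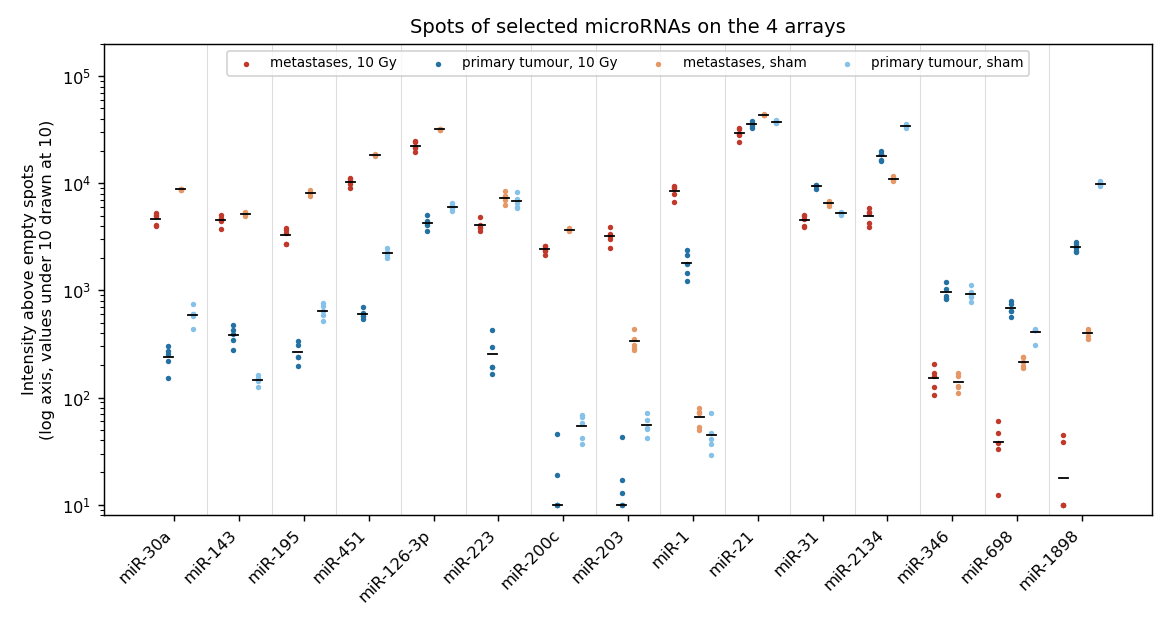
Intensity above the empty spots (log axis) of 15 microRNAs on the 4 arrays, from left to right in each block metastases 10 Gy, primary tumour 10 Gy, metastases sham and primary tumour sham. Dots are the 5 spots, bars their mean, and values under 10 units are drawn at 10. miR-223 is low on the primary 10 Gy array alone, and miR-1 is high on both 10 Gy arrays.

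**Figure D5:**
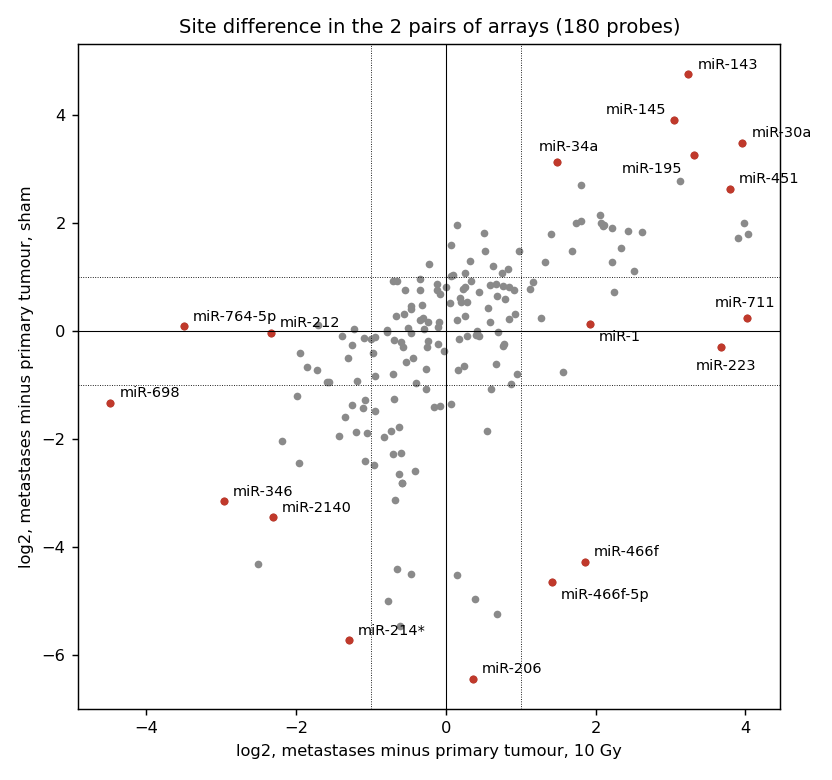
Log2 difference between metastases and primary tumour after 10 Gy (horizontal) against the same difference after sham (vertical) for the 180 probes measured on all 4 arrays, with dotted lines at 2-fold and labelled probes in red. miR-466f and miR-466f-5p lie in the lower right, positive after 10 Gy and negative after sham.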

How the data were processed

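Total RNA (2 µg, Qiagen miRNeasy) was tailed, tagged, stained with Cy3 and hybridised on microfluidic chips by a service provider, per the labels' protocols. The scanner tables hold linear intensity values per spot as deposited by the authors, with no background subtracted, per the file headers and the empty spots. A second table holds the authors' processed intensity values, whose scale and centring no source states, and it serves as an alternative. Scanner software is not given in the sources.

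From each array the median of its 180 empty spots was subtracted from the 3500 spots of 700 microRNA probes, and the 5 spots of a probe were averaged. Detection needed 3 of 5 spots above the 95th percentile of the empty spots. Levels were floored at the array's detection limit before log2 was taken, so spot SDs of dim probes are understated. The log2 ratio of metastases to primary tumour was centred on the median of probes detected on both arrays. Bounds use the brighter array's level over the higher of the dimmer array's lowest detected level and the probe's own level. With 1 array per group no test was run, and precision depends on how few arrays there are. The procedure was also run on simulated spots with known log2 shifts and 1 constant scaling factor. That run does not bear on how the counts here depend on background and scaling.

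microRNAs were named by rule: among probes measured on both arrays with non-overlapping spots, 8 from the top and 8 from the bottom, then 6 bounds from either end, miR-21, and up to 4 of the brightest members of each of 29 lists. microRNAs outside it are named beside family members or where they stand out, and were chosen after their values were seen. The comparison and the lists were chosen with earlier results of these data known. Sequences come from RefSeq (GRCm38.p6), with 538 of 700 probes matched. Alternatives were other scalings, background corrections (normexp with an offset of 50), detection rules and the authors' table. Tools were R 4.3.3, limma 3.58.1, Python 3.11.15, pandas 2.3.3 and numpy 2.4.6.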

Additional observations from a re-analysis of the deposited data

Results flagged for a closer look

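The 2 probes miR-466f and miR-466f-5p, of a repeat-derived microRNA family, were at least 2-fold higher in metastases in the 10 Gy pair and at least 2-fold lower in metastases in the sham pair. miR-466f differed by 1.86 (log2) after 10 Gy, with 2590 units in metastases and 571 units in the primary tumour, and by -4.28 after sham, with 1283 units in metastases and 18627 units in the primary tumour. miR-466f-5p differed by 1.42 after 10 Gy, with 192.1 units in metastases and 57.3 units in the primary tumour, and by -4.66 after sham, with 119.1 units in metastases and 2250.3 units in the primary tumour. The difference between the pairs was not tested, since each group is 1 array.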

How the results depend on the processing

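No paired analysis was possible because each group is 1 array, so the groups share a lone replicate number and leave nothing to estimate a block from. For the same reason no array could be left out. Median scaling put 56 probes above 2-fold in metastases and 35 below it, while setting each array to its 75th percentile gave 36 higher and 78 lower. Quantile normalisation gave 99 higher and 54 lower, normexp with quantile 35 higher, normexp alone 16 lower, and no scaling 22 lower. The authors' value table gave 87 higher, with 77.7% of its calls higher. Without a detection filter 472 were lower, because undetected probes then sit at the different floors of the 2 arrays. The other counts lay within 1.5 times of the main ones. Scaling to the 5S ribosomal RNA probes, and a common detection limit, were added after the data were seen and gave 57 higher with 35 lower and 51 higher with 36 lower. Higher probes outnumbered lower ones under median scaling, and lower ones outnumbered higher under the 75th percentile, under cyclic loess (44 higher and 50 lower), under normexp with quantile (35 higher and 38 lower) and without the filter. The cause of the shifts between scalings was not tested. Depth is the signal over background, and it limits most the 158 probes detected in metastases alone, whose differences are bounds.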

Other observations

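The repeat cluster family, 48 probes for microRNAs of the miR-297, miR-466, miR-467 and miR-669 groups, is given here with its values in both pairs. After 10 Gy 7 of its members were measured in both samples, with a median of 0.39, 3 of 27 detected members at least 2-fold higher in metastases (16.3% of all detected probes) and 1 at least 2-fold lower, miR-466g (10.2% of all). After sham 21 were measured in both, with a median of -2.51, and 20 of 30 detected members were 2-fold or more lower in metastases (19.2% of all detected probes). The sum over the family was 5147 units in metastases and 1882 units in the primary tumour after 10 Gy. miR-574-5p, miR-574-3p, miR-672, miR-1187 and miR-468 were all below 0 after 10 Gy, with a median of -0.58, and had a median of -2.82 after sham.

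The miR-23, miR-24 and miR-27 clusters, with members of a shared transcript, had a median of -0.32. miR-27a alone among the 5 was at least 2-fold higher in metastases, near the 20.4% of all probes measured in both. It read 5234 units in metastases and 1305 units in the primary tumour. miR-22 differed by 2.51 and miR-99a by 2.34, from 814 and 575 units in metastases and 115 and 91.2 units in the primary tumour. Neither stayed past 2-fold under every scaling, with 0.97 and 0.80 at the lowest. miR-100 and miR-99b, which share the seed of miR-99a, differed by 0.15 and -0.78.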
